A study of Mus musculus with 6 samples.

Results

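Bcl2 and its anti-apoptotic relatives were followed probe by probe in 2 lines of S49, a T lymphoma cell line from the mouse. The members were 8 genes: Bcl2, Bcl2l1 (Bcl-xL), Bcl2l2 (Bcl-w), Bcl2l10, Mcl1 and the A1 genes Bcl2a1a, Bcl2a1b and Bcl2a1d. All spots of the array that carry a member's name or an older name of it were taken, which gave 12 of 41174 gene probes. Of the 8 genes, 6 have a probe under their own name, among 27669 gene names on the array, and Bcl2a1a and Bcl2a1d share the probe named for Bcl2a1b. The parental line, S49 Neo, was compared with MR 4-25, a line that the submitters call mannitol recovered; mannitol, a sugar alcohol, makes culture medium hyperosmotic. Both lines grew in RPMI-1640 with heat-inactivated serum, glutamine, penicillin and streptomycin, and all samples are labelled untreated. Each line had 3 samples with 1 Agilent array each, labelled with the dye Cy3. The labels do not say whether the samples were separate cultures, so errors and p-values cover only the spread among these samples, part or all of which may be technical. Mannitol recovery is represented by a single line, so effects of the recovery and properties of that line cannot be told apart.

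The genes were chosen by measured values of these arrays: the log2 line difference of Bcl2 was already known, and its brightest probe and another of its probes had given different answers. The relatives were added by family, and no threshold was used. The line differences of the members are therefore a description, given as values with their errors and with no p-value printed. Where a member is said to be past the threshold of the fit over all probes, this only sets its count beside that of all probes and is no independent evidence.

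The Bcl2 family sets whether mitochondria release cytochrome c, the step that starts the caspase cascade in many forms of cell death. Its anti-apoptotic members hold the pore-forming members Bax and Bak1 in check and are themselves occupied by BH3-only proteins such as Bim, Puma and Noxa. In developing and mature T cells Bcl2, Bcl-xL, Mcl1 and A1 are known to act at different stages, and the Bcl2 gene is known for a very long intron between its coding exons.

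The probes sample different places in these genes, and the sequences of those on which the comparison between probes turns are shown here, 5′ to 3′ in the sense of the mRNA; no base is marked in capitals. The first 3 probes are called coding because their bases read as known sequence of these proteins, not from an annotation of exons, which was not used here. They are given whole, and of the last 2, which lie far downstream in Bcl2 and Bcl2l1, the first 30 bases are given.
Bcl2 coding probe: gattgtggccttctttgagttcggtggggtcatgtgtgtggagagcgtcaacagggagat
Bcl2l1 coding probe: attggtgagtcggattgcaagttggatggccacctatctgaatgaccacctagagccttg
Bcl2a1a, Bcl2a1b and Bcl2a1d shared probe: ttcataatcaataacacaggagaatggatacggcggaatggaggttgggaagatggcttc
Bcl2 distal probe: catataatggctctttgtttgtgttgttag
Bcl2l1 distal probe: ttattccttgtgaagatgatatactatttt

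Positions follow the annotation deposited with the arrays, which uses build mm7. The Bcl2 coding probe is at chr1:106612249-106612308 on the minus strand and is filed under the RefSeq transcript NM_177410. A second probe, here called the middle probe, lies 1.66 kb downstream of it at chr1:106610589-106610648 and is filed under the cDNA clone AK077913. The distal probe is at chr1:106438098-106438157, 174 kb downstream of the coding probe, and is filed under NM_009741. RefSeq lists 2 Bcl2 mRNAs. The coding probe has a GC content of 53.3%, and the middle and distal probes have 35.0% each.

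On 5 of the arrays the 75th percentile of the gene spots lay between 844 and 988 intensity units, and 69.9% to 76.2% of probes were well above background, a call the scanner software makes for each spot. MR 4-25 replicate 3 was dimmer, at 521 units and 61.3%. It shared slide 2 with Neo 3, and the other 4 arrays, 2 of each line, were on slide 1. Signals below are log2 values relative to the array's own 75th percentile, so 0 is a probe at that percentile; levels of different probes are not comparable, and only their line differences are set side by side. The labelled cell type was checked on its markers: all 9 T cell markers, among them Thy1, Cd3e and Lck, were well above background on all 6 arrays. Their summed signal, in multiples of the 75th percentile, was 257 to 294 in Neo and 245 to 265 in MR 4-25.

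The Bcl2 distal probe was higher in every MR 4-25 sample. Its log2 signal was −1.32, −1.41 and −1.57 in Neo 1, 2 and 3 and 1.03, 1.05 and 0.66 in MR 4-25 1, 2 and 3. The lines did not overlap, and the lowest MR 4-25 value, in the dim array, was still far above the highest Neo value. The mean went from −1.43 ± 0.13 to 0.91 ± 0.22 (SD, n = 3), a log2 difference of 2.34 ± 0.18 (SE), or 5.08-fold. In unscaled intensity units the probe read 396, 317 and 309 in Neo and 1775, 1893 and 820 in MR 4-25. Within slide 1 the difference was 2.41 and within slide 2 it was 2.22. Of all 30959 probes tested, 0.966% had a larger absolute difference. In bulk RNA of this kind, more cells that express a gene and more RNA per cell cannot be told apart.

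**Figure D1:**
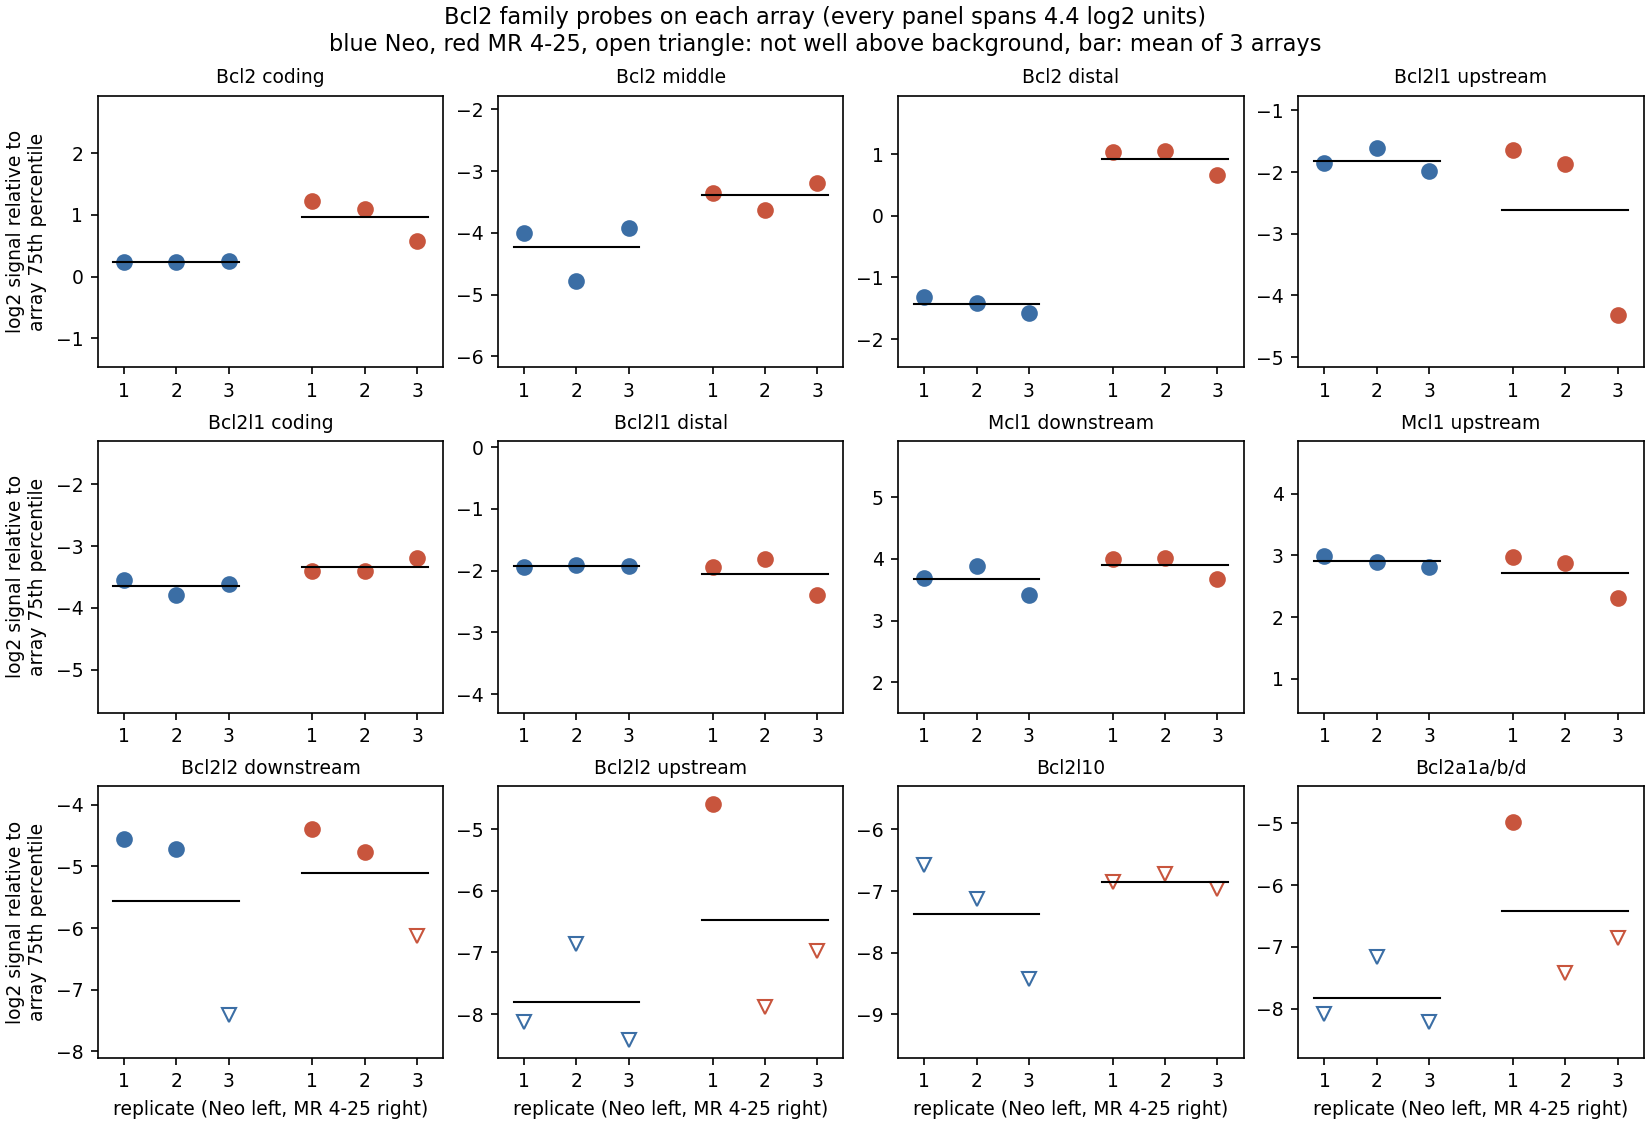
Log2 signal of the 12 probes relative to the 75th percentile of each array, by replicate, for Neo (blue) and MR 4-25 (red); bars are means of 3 arrays and open triangles are spots not well above background. The Bcl2 distal probe goes from −1.43 to 0.91 on average. The Bcl2 coding and middle probes, the 3 Bcl2l1 probes and the 2 Mcl1 probes move by less than 1. Every panel spans the same range on its axis.

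The array carries this probe on 10 spots, which allowed a check within arrays. After spots marked as outliers were masked, the 29 Neo spots lay between −1.97 and −1.06 and the 27 MR 4-25 spots between 0.58 and 1.37. No Neo spot reached the lowest MR 4-25 spot. The SD among spots of 1 array was 0.0441 to 0.209 for this probe, with a median of 0.178. Spots of an array share their RNA and are not replicates of a line.

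**Figure D2:**
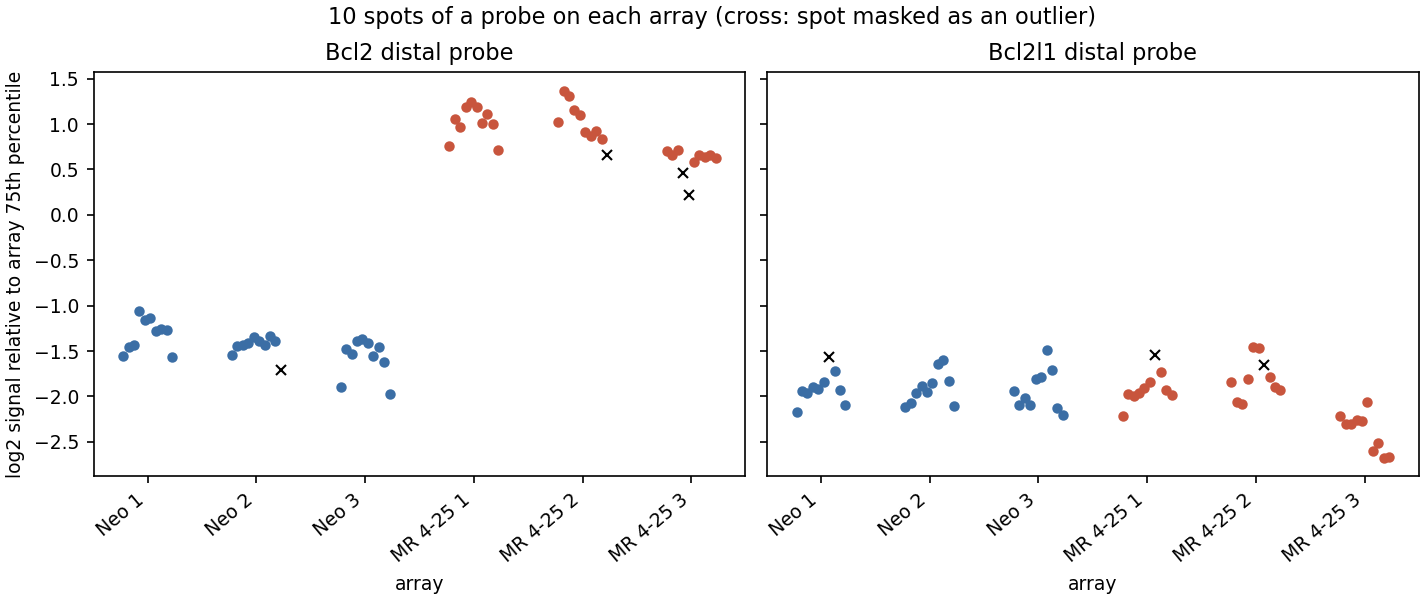
Log2 signal of each of the 10 spots of the Bcl2 distal and Bcl2l1 distal probes on each array, relative to the array's 75th percentile; crosses are spots masked as outliers. For Bcl2 the used spots of the lines are separated by the gap between −1.06 and 0.58, and for Bcl2l1 they overlap.

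The Bcl2 coding probe was also higher in MR 4-25, by less. Its log2 signal was 0.23, 0.24 and 0.26 in Neo and 1.23, 1.09 and 0.58 in MR 4-25. The Neo values lay close together and all MR 4-25 values were above them, with the dim array nearest to Neo. The means were 0.24 ± 0.01 and 0.96 ± 0.34 (SD, n = 3), a log2 difference of 0.72 ± 0.21 (SE), or 1.65-fold. It was 0.92 within slide 1 and 0.32 within slide 2. A larger absolute difference was found in 20.0% of probes tested. With normexp background correction the log2 difference was 0.68, or 0.33 relative to the median of all probes. In unscaled intensity units the probe read 1159, 1000 and 1096 in Neo and 2042, 1942 and 775.7 in MR 4-25, so there the lines overlapped.

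The middle probe was well above background on every array. It gave −4.00, −4.77 and −3.92 in Neo and −3.36, −3.63 and −3.19 in MR 4-25. On the scaled log2 values the lines again did not overlap, and here the dim array was the highest of all. In unscaled intensity units the probe read 61.7, 30.9 and 60.7 in Neo and 85.0, 73.5 and 57.1 in MR 4-25. There the lines overlapped, and the dim array was the lowest of MR 4-25. The log2 difference was 0.84 ± 0.29 (SE), or 1.79-fold, and it was 0.89 and 0.73 within slides 1 and 2. With normexp it was 0.91, or 0.56 relative to the median of all probes, and with normexp and quantile normalization it was 0.31.

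All 3 Bcl2 probes were thus higher in MR 4-25, and the distal probe differed from the other two in size. Relative to the coding probe, and to the mean of Neo, the distal probe stood at 0.13, 0.02 and −0.15 in Neo and at 1.47, 1.64 and 1.76 in MR 4-25. The difference between the line differences was 1.62 ± 0.12 (SE), with all MR 4-25 samples, the dim one included, above all Neo samples. Against the middle probe the distal probe's difference was larger by 1.51 ± 0.39. Middle and coding probes differed from each other by 0.12 ± 0.40, an amount smaller than its error. After normexp background correction the distal and coding probes were 1.40 apart. Because unlike answers of Bcl2 probes were known when the genes were chosen, these contrasts are a description and no independent evidence. Whether the distal probe reads other transcripts than the coding probe was not tested.

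Bcl2l1 encodes Bcl-xL, the close relative that prevails over Bcl2 in double-positive thymocytes. Its 3 probes gave differences of both signs, and both negative signs rested on the dim array: without it the upstream, distal and coding probes were at 0.06, 0.04 and 0.24. With normexp on all arrays they were at 0.27, 0.25 and 0.71, but normexp moved the median of all probes to 0.35. Relative to that median they were at −0.07, −0.09 and 0.36. With normexp and quantile on all arrays they were at −0.33, −0.14 and 0.13. The coding probe, at chr2:152570306-152570365 on the minus strand, read −3.55, −3.80 and −3.61 in Neo and −3.40, −3.41 and −3.20 in MR 4-25. These values did not overlap, and the log2 difference was 0.31 ± 0.16 (SE). In unscaled intensity units the lines overlapped, at 84.5, 60.6 and 75.2 in Neo and 82.55, 85.7 and 56.8 in MR 4-25. The distal probe, at chr2:152521752-152521811, 48.6 kb downstream, read −1.94, −1.90 and −1.93 in Neo and −1.95, −1.81 and −2.39 in MR 4-25. MR 4-25 1 and 2 lay just below and just above the Neo values and the dim array well below them, and the difference was −0.13 ± 0.20. This probe too has 10 spots, and its 29 used Neo spots, from −2.20 to −1.49, overlapped the 28 MR 4-25 spots, from −2.67 to −1.46.

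The Bcl2l1 upstream probe, at chr2:152570851-152570910, rested on 1 sample. It read −1.86, −1.61 and −1.98 in Neo and −1.65, −1.87 and −4.32 in MR 4-25. The first 2 MR 4-25 samples lay within the Neo range and MR 4-25 3 far below it, at 26.0 intensity units against 250.3 and 279. The log2 difference was −0.79 ± 0.76 (SE) with that array included. The distal and coding probes of Bcl2l1, 48.6 kb apart, differed in their line difference by −0.44 ± 0.26, opposite in sign to the Bcl2 pair, and by −0.20 ± 0.13 without MR 4-25 3.

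Mcl1 encodes a short-lived anti-apoptotic protein that lymphocytes need throughout life. Both of its probes were well above background on all arrays. The downstream probe, at chr3:95536882-95536941 on the plus strand, read 3.70, 3.89 and 3.41 in Neo and 4.00, 4.01 and 3.68 in MR 4-25. The lines overlapped, and the log2 difference was 0.23 ± 0.20 (SE), or 0.10 without Neo 3. With normexp it was 0.08, where the median of all probes was 0.35. The upstream probe, at chr3:95535570-95535629, read 2.99, 2.90 and 2.82 in Neo and 2.98, 2.87 and 2.31 in MR 4-25. Its difference was −0.18 ± 0.22, with 2 MR 4-25 samples inside the Neo range and the dim array below it, and it was 0.02 without that array. The 2 probes, 1.31 kb apart, differed in their line difference by 0.41 ± 0.16.

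Bcl2l2, which encodes Bcl-w, was near the limit of measurement. Its downstream probe, at chr14:49754681-49754740 on the plus strand, was well above background on the 4 arrays of slide 1 and on neither array of slide 2. It read −4.56 and −4.72 in Neo 1 and 2, and −4.40 and −4.77 in MR 4-25 1 and 2; on slide 2 it read −7.40 in Neo 3 and −6.14 in MR 4-25 3. The values followed the slide, and the log2 difference of 0.46 ± 0.92 (SE) was 0.06 within slide 1. The upstream probe, at chr14:49751852-49751911, was well above background in MR 4-25 1 alone, at 36.2 intensity units, and between 2.67 and 7.22 on the other arrays. It was not tested.

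The A1 genes encode small anti-apoptotic proteins induced by NF-kappaB in lymphocytes, and their mouse copies are near-identical. One probe, named for Bcl2a1b, stands for all 3, since its accession list holds transcripts of Bcl2a1a, Bcl2a1b and Bcl2a1d; its 60 bases are placed over chr9:88829714-88837575, a span of 7862 bases. It was well above background on 1 array, MR 4-25 1, at 27.6 intensity units, and read 3.09 to 5.88 on the others. Bcl2l10, known mainly from oocytes, has 1 probe at chr9:75388690-75388749, which was well above background on no array and read 2.67 to 10.3 units. Neither probe was tested, and at these signals a level of the A1 genes or Bcl2l10 was not detectable in either line, apart from that single A1 reading.

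Of the 12 probes, 9 were well above background on at least 3 arrays and entered the limma fit over all probes, and 8 of these were so on all 6. At an adjusted p of 0.05, 1 of the 9, the Bcl2 distal probe, was past the threshold and higher, against 0.694% of all probes; 0 of the 9 were past it and lower, against 0.601%, and in either direction 1.30% of all probes were called. Scaled log2 values of the lines did not overlap for 4 of the 9, the 3 Bcl2 probes and the Bcl2l1 coding probe, against 25.2% of all probes. In unscaled intensity units, only the Bcl2 distal probe among these 4 was without overlap. The log2 difference was positive for 6 of the 9 and negative for 3, and the median over all probes tested was −0.02. Because Bcl2's difference chose the set, nothing is read from these shares. The distal probe's value lay between 1.99 and 2.41 in the settings that kept all arrays. With normexp it was 2.08, or 1.73 relative to the median of all probes. The probe lost its place past the threshold with the replicate number as a block (2.34), and when any array but MR 4-25 3 was left out (2.27 to 2.40).

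**Figure D3:**
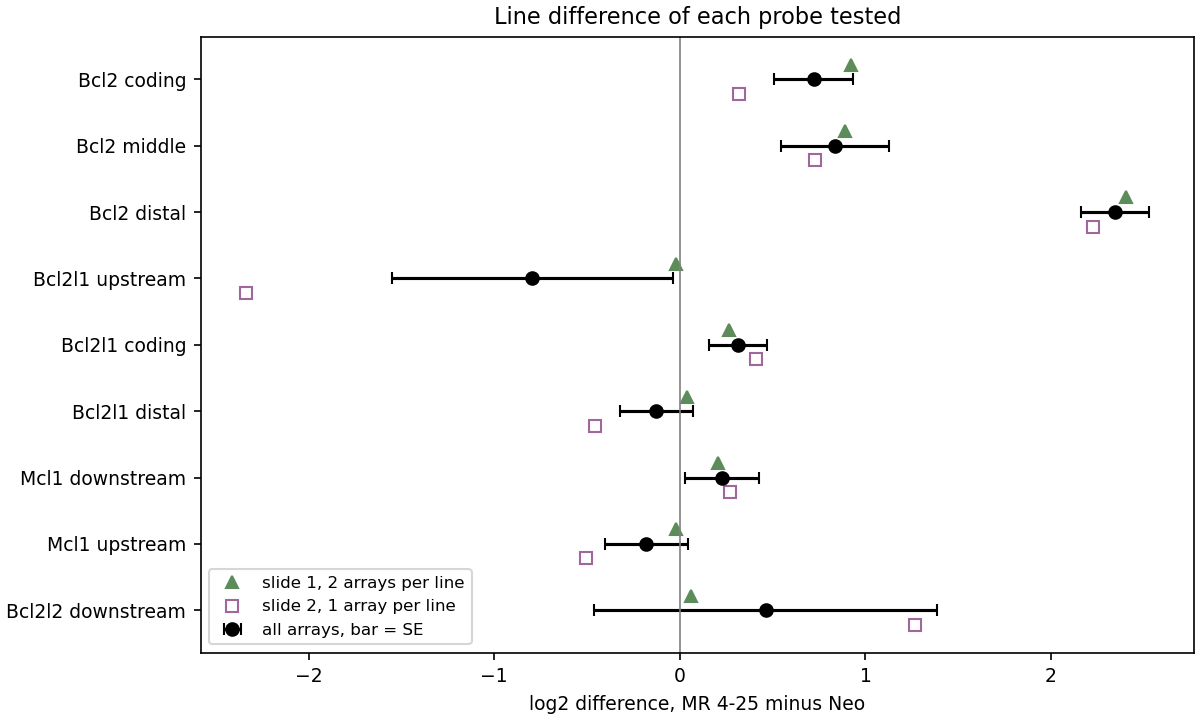
Log2 difference (MR 4-25 minus Neo) of the 9 probes tested, with its SE (black), and the difference within slide 1 (triangles) and within slide 2 (squares). The Bcl2 distal probe is at 2.34 with both slides beside it, while the slides lie apart for Bcl2l1 upstream (−0.02 and −2.34) and for Bcl2l2 downstream (0.06 and 1.27).

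Markers of other cell types were set beside these values; a marker counts where any 1 of its probes was well above background on all arrays of the line, and enters the sum by its brightest probe on each array. Of 6 B cell markers, all were well above background in Neo and 3 in MR 4-25, with sums of 1.12 to 1.19 and 0.782 to 1.18. The brightest probes of Cd79b, Ms4a1 and Pax5 were well above background on 2 MR 4-25 arrays each. That of Ms4a1 was so on 2 Neo arrays as well, with a log2 difference of 0.20. Among the MR 4-25 arrays these 3 probes read lowest on the dim one. Blnk, a B cell adaptor, fell 3.74-fold (limma adjusted p = 0.0408 over genes), and the other 5 did not pass. Of all genes tested, 0.558% were called lower. Blnk was named after its value was seen, and its call was not followed under other settings. Of 7 myeloid markers, 6 were well above background in Neo and 5 in MR 4-25, and Csf3r was so on no array. Their sums were 1.08 to 1.58 and 1.94 to 2.21. Sums of the 5 NK cell markers (0.0983 to 0.255 and 0.0637 to 0.252, Klrk1 on no array) and of the 8 stromal, epithelial and endothelial markers (1.06 to 1.67 and 1.00 to 1.82, Epcam on no array) overlapped between the lines. The part of these cell types, of the dim array and of the slide in the Bcl2 differences was not tested.

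The partners of these proteins were read with the brightest probe of each gene, over 21335 genes, of which 0.675% were called higher and 0.558% lower, and 13.3% had an unadjusted p under 0.05. Of 16 pro-apoptotic family members 14 were tested; 1 rose, Pmaip1, with 0 that fell and 13 not past the test, 2 had an unadjusted p under 0.05, and the median log2 difference was 0.23, against 0.01 over all genes. Pmaip1 encodes Noxa, a BH3-only protein that binds Mcl1 and A1. It was well above background on no Neo array, where it read −7.95, −8.12 and −6.26, and on all MR 4-25 arrays, at −2.75, −2.54 and −2.27. It thus entered the test through MR 4-25 alone, the line where it is high, and with the filter on all 6 arrays it was not tested and 0 genes of the list passed, so its call adds nothing to the count of the list. Its measured means were −7.44 and −2.52 (limma adjusted p = 0.0272 over genes). For a fold, Neo was set to the lowest signal well above background, or to the probe's own where that was higher. On this treatment of the background alone, Pmaip1 was 13.9-fold higher in MR 4-25. The limma call was lost after normexp correction, where the log2 difference was 1.91, and with a replicate block (limma adjusted p = 0.105). It was also lost when any 1 array but Neo 3 was left out (log2 difference 4.58 to 5.04). With normexp and quantile the log2 difference was 1.29. The pore formers Bax and Bak1 differed by 0.28 and 0.05, Bcl2l11 (Bim) by 0.25, Bbc3 (Puma) by 0.48 and Bid by −0.62, none past the test.

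Of 22 binding partners of the family, 0 passed the limma test in either direction, 4 had an unadjusted p under 0.05, and the median difference was −0.19. The largest was Itpr1, an endoplasmic reticulum calcium channel that Bcl2 binds, at −0.86 ± 0.20 (SE). Of 16 genes of cytochrome c release and caspases, 0 passed, 5 had an unadjusted p under 0.05, and the median was −0.16. Birc3, an inhibitor of apoptosis protein, had the largest difference, at 0.86 ± 0.17. Of 14 genes of Mcl1 turnover, 0 passed, 1 had an unadjusted p under 0.05, and the median was 0.01. Ier3 differed most, at 1.44 ± 0.82, with Neo 1 far below Neo 2 and Neo 3.

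Of 28 transcription factors described as regulators of Bcl2 family genes 26 were tested; 1 rose, Relb, with 0 that fell and 25 not past the test, 8 had an unadjusted p under 0.05, and the median was 0.08. Relb, a subunit of NF-kappaB, read 1.87, 1.86 and 1.91 in Neo and 3.39, 3.03 and 3.44 in MR 4-25. The lines did not overlap, and it was 2.65-fold higher, with a log2 difference of 1.41 ± 0.17 (SE, limma adjusted p = 0.0352 over genes). The call was lost with a replicate block (limma adjusted p = 0.149), after normexp correction, with median scaling, on slide 1 alone and when any 1 array was left out (1.33 to 1.54). With every probe tested on its own, another probe of Ets1, a T cell transcription factor, was 2.21-fold lower (limma adjusted p = 0.0430), while its brightest probe differed by −0.79 and did not pass.

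**Figure D4:**
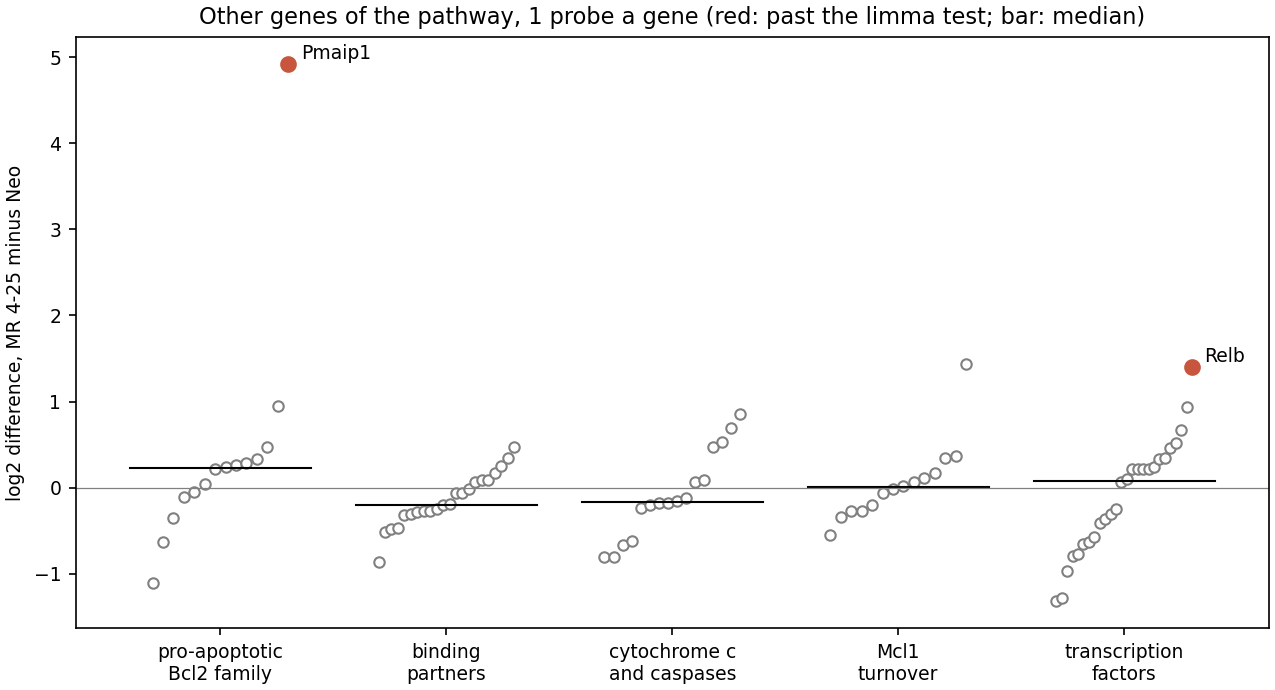
Log2 difference (MR 4-25 minus Neo) of each tested gene in 5 lists of the pathway, 1 probe a gene; bars are list medians and filled red points passed the limma test. Pmaip1 at 4.92 and Relb at 1.41 are the genes past the test, and the medians lie between −0.19 and 0.23. Pmaip1 was well above background on no Neo array, so it entered the test through MR 4-25 alone and its 4.92 rests on Neo readings below that call.

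The surroundings of Bcl2 were read on the array's own map. Within 1 Mb of its probes lie 39 other probes, of which 26, for 20 genes, were tested; 1 rose, 0 fell and 25 did not pass, against 0.694% higher and 0.601% lower of all probes, with a median log2 difference of −0.26. The probe that rose was that of Serpinb5 (maspin), 170 kb from the Bcl2 coding probe on its 5′ side. It read −2.66, −2.95 and −3.15 in Neo and 0.06, −0.21 and 1.37 in MR 4-25. The lines were well separated, with a log2 difference of 3.33 ± 0.46 (SE), or 10.1-fold (limma adjusted p = 0.0469 over all probes), and the call was lost with a replicate block (limma adjusted p = 0.170), with normexp, quantile or median scaling, and when any 1 array but MR 4-25 3 was left out (3.21 to 3.64). Kdsr, the nearest gene, had negative differences of −0.51, −0.62 and −0.97 on the 3 probes that were tested. None of these passed, with limma adjusted p of 0.189, 0.168 and 0.0688. A further Kdsr probe, at 0.38, was well above background on no array and was not tested. Between the coding and distal probes lies the clone AK039914, 107 kb downstream of the coding probe, which differed by 0.51 ± 0.24. That value was closer to those of the coding and middle probes than to that of the distal probe. Another clone between them, AK081910, at −0.71, was well above background on 1 array and was not tested.

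**Figure D5:**
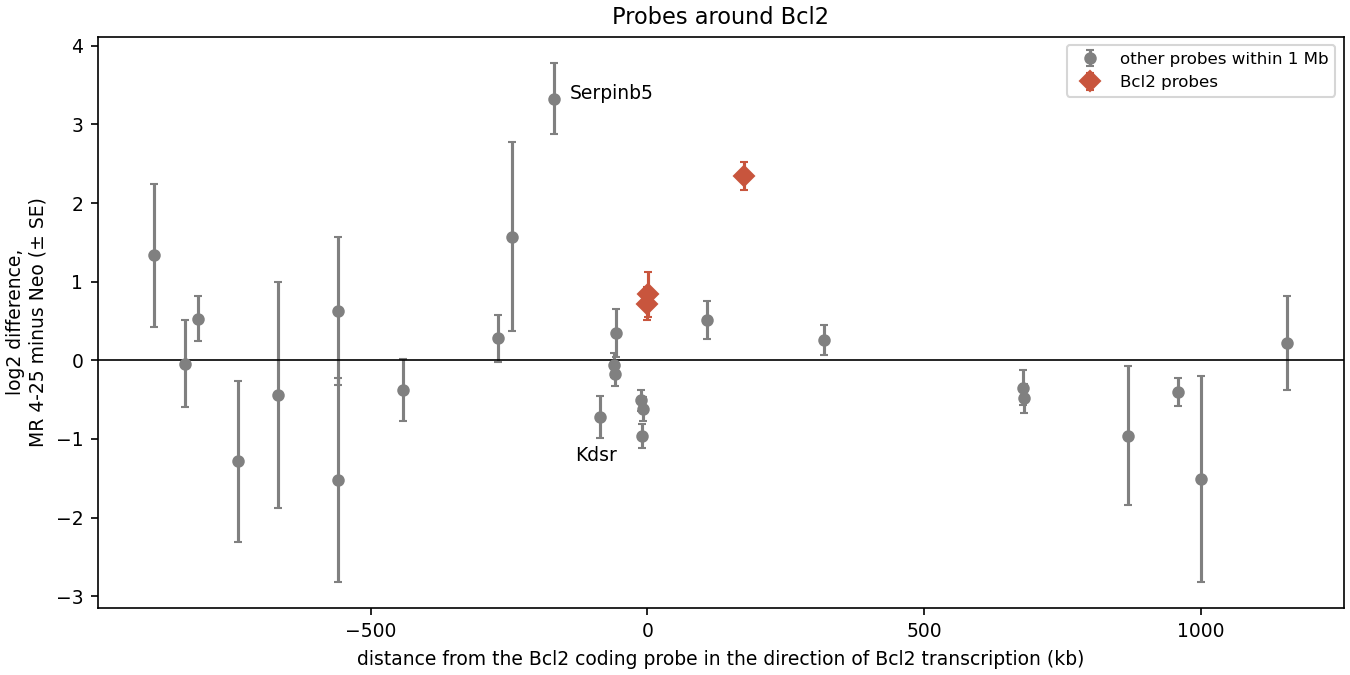
Log2 difference (MR 4-25 minus Neo) with its SE of each tested probe within 1 Mb of the Bcl2 probes, by its distance in kb from the coding probe in the direction of Bcl2 transcription. The distal probe stands at 2.34 and Serpinb5 at 3.33, while the 3 Kdsr probes next to Bcl2 lie between −0.97 and −0.51.

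The coding probe had an r of 0.918 with the distal probe and of 0.632 with the middle probe over the 6 arrays. The middle probe had 0.957 with the Bcl2l1 coding probe. The genes most like each Bcl2 probe were taken by Pearson r among 22305 probes well above background on all arrays. For the coding probe they were Phf13, Plod1 and Cenpe, with r of 0.994, 0.989 and 0.989 and line differences of 0.56, 0.34 and 0.61. For the middle probe they were Cenpe, by another of its probes, Lgals4 and Odf2. Their r were 0.985, 0.984 and 0.984 and their line differences 0.49, 0.27 and 1.47. For the distal probe they were Ifi27, Mcub and A2ml1, with r of 0.999, 0.998 and 0.998 and line differences of 1.19, 1.54 and 4.11. The arrays share lines and slides, and the most alike of so many probes reach a high r, so these values are a description.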

How the data were processed

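Scanner files deposited by the authors hold a processed Cy3 intensity for each spot, corrected for background. Per the file headers the software was Agilent Feature Extraction 9.5.3.1, which the submitters' processing notes give as 9.5. A deposited value table held the same intensity values, neither logged nor centred; array medians were 88.3, 90.2 and 86.5 (Neo 1 to 3) and 89.9, 85.4 and 50.2 (MR 4-25 1 to 3). No member spot was saturated. Probe positions are those of the deposited files, on mm7; no genome was used here.

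Of 43379 gene spots per array (1639 control spots were left out), outlier spots were masked and the log2 signals of a probe's spots averaged, which dropped 34 of 41174 probes whose spots were all masked on an array. The log2 75th percentile of the array was subtracted. A probe was tested if well above background on 3 or more arrays (30959 probes), or, for genes, the brightest for each of 21335 genes. Names came from RefSeq by accession for 23075 probes and by synonym for 3077; 6582 carried a current symbol and 8440 kept the file's name. limma 3.58.1 (R 4.3.3; packages data.table, at version 1.17.8, and jsonlite, at 2.0.0) fitted MR 4-25 minus Neo with lmFit and eBayes, adjusted by Benjamini-Hochberg; the fit was tested on simulated data. Figures used Python 3.11.15 and matplotlib 3.10.9. Array number limits the precision.

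The members, gene lists and rules were chosen with earlier results of these data known. Named were all member probes, list genes past the test or else the one of largest absolute difference, neighbours of Bcl2 past the test, and the 3 genes most like each Bcl2 probe. Bax, Bak1, Bcl2l11, Bbc3, Bid, Ets1, Kdsr, AK039914, AK081910, Blnk and the markers were named after their values were seen.

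The replicate numbers come from the sample titles. Arrays with the same number deviated together from the means of their lines (r of 0.29, 0.21 and 0.55), all over the level of 0.1 set for pairing. On slide 1, arrays of unlike number did so more (0.41 and 0.36), and pairs from different slides had r of −0.34 to −0.48. The deviations thus went with the slide more than with the number, and the replicate block is given only as an alternative. Alternatives were normexp (offset 50), quantile, normexp with quantile, scaling by the median, testing without a filter or with one on all 6 arrays, every probe or one probe a gene, the value table, an intensity trend with robust variance, array quality weights, a block for slide or replicate number, the arrays of slide 1 alone, and omission of each array.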

Additional observations from a re-analysis of the deposited data

How the results depend on the processing

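Bcl2's line difference chose the members, so whether its probes pass the threshold is a description of the settings and no evidence of stability. The line difference of the Bcl2 distal probe was past the threshold under 12 of 18 alternatives and lay between 1.99 and 2.41 in those that kept all arrays. Relative to the median of all probes, this difference was 1.73 with normexp. The probe was not past the threshold with a replicate block (2.34). Leaving out 1 array gave 2.27 to 2.47, past the threshold only without MR 4-25 3. The Bcl2 coding probe passed with array quality weights (0.86) and in no other setting. Other member probes kept their side of the threshold in all settings they were tested in. The filter on all 6 arrays removed the Bcl2l2 probe. The distal minus coding difference was 1.40 with normexp and 1.28 with normexp and quantile, and middle minus coding was −0.41 with the latter; the cause was not tested. Of the member probes, 2 were past the threshold with array quality weights, 0 with a replicate block, 0 with one probe a gene, and 0 to 1 when an array was left out.

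Probes past the threshold numbered 401, and 90 with normexp (65 higher and 25 lower, against 215 and 186; it moved the median of all probes to 0.35), 811 with normexp and quantile, 224 without a filter, 751 with the filter on all 6 arrays, 978 with a trend and robust variance, 2991 with array quality weights (1340 higher, 1651 lower), 1 with a replicate block, 172 on slide 1 alone and 263 with one probe a gene. Leaving out 1 array gave 6 to 308: 6 without Neo 2, 21 without MR 4-25 1, 27 without Neo 1, 35 without MR 4-25 2, 55 without Neo 3 and 308 without MR 4-25 3. Fewer samples or genes enter several of these fits.

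List counts were recomputed in settings chosen after seeing the data, except the planned one of every probe on its own, which gave 2 transcription factors. Pro-apoptotic genes called were 0 with normexp, the filter on all 6 arrays and a replicate block, 3 with array quality weights and 0 to 1 without an array. Binding partners were 1 with normexp and quantile, 1 with a trend and 3 with weights. Cytochrome c release and caspases gave 1 with the filter on all 6 arrays, 1 with a trend and 5 with weights, and Mcl1 turnover 1 with weights. Transcription factors gave 0 with normexp, median scaling, slide 1 alone and a replicate block, 2 with normexp and quantile, 2 with the filter on all 6 arrays, 5 with a trend, 7 with weights and 0 to 1 without an array. Relb and Serpinb5 kept a positive difference throughout and were each past the threshold in 8 of 18 alternatives. Their limma adjusted p ran from 0.00568 to 0.208 and from 0.00316 to 0.240. Pmaip1 also stayed positive and was past the threshold in 10 of 17 alternatives (limma adjusted p 0.00128 to 0.299). It was well above background only in the line where it is high, so its sign and calls are no evidence of stability.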
